A study of Mus musculus with 12 samples.

Results

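The transcripts described here encode the proteins that carry out and regulate pre-mRNA splicing in NIH-3T3, a line of immortalised mouse embryo fibroblasts. The 82 genes were chosen by symbol, out of 17419 genes in the table, as those named Srsf, Hnrnp, Sf3a, Sf3b, Snrp, Prpf, Lsm and U2af, with Tra2a and Tra2b. They were ordered by role. The SR group held 10 Srsf genes with Tra2a and Tra2b, 12 in all. The other groups were 20 Hnrnp genes, 12 Snrp genes, 12 Sf3 and U2af genes, 13 Prpf genes and 13 Lsm genes. Genes named Snrnp are not covered by the rule, and some of them were counted in a separate list of other spliceosome genes.

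The experiment used SLAM-seq, in which cells build 4-thiouridine (4sU), a uridine analogue, into the RNA they are making. Iodoacetamide treatment then makes the incorporated 4sU read as C. The wild-type cells received 4sU at 800 µM for 15, 30, 60, 90 or 120 min, or none (no4sU), and each of the 6 groups had 2 libraries, replicates A and B, made from total RNA. By its title, the series asks how the time of labelling distorts measurements of this kind. All groups came from the same cell line, and nothing in the labels says that replicates were separate cultures, so p-values measure only the spread between these libraries, which may be technical. The 12 libraries held 9917026 to 13739380 reads, of which the 82 genes took 1.84% to 1.95%. Of 10 fibroblast markers, all 10 were in the table, with a summed level of 19024 to 22192 CPM (read counts scaled to library size) per library. The summed level of 3 immune markers was 16.2 to 21.8 CPM, that of 3 endothelial markers 0.731 to 1.71 CPM, and that of the 2 listed of 4 epithelial markers 0 to 0.571 CPM.

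SR proteins bind exonic sequences in pre-mRNA through RNA recognition motifs and, through their arginine- and serine-rich domains, help to recruit the spliceosome to nearby splice sites. Many genes for SR proteins contain an alternative exon that carries a stop codon, often called a poison exon, and its inclusion sends the transcript to nonsense-mediated decay (NMD), by which several SR proteins limit their own abundance. The Snrp genes encode the Sm proteins, which form a ring around the small nuclear RNAs, and proteins specific to the U1 and U2 particles. These particles recognise the 5′ splice site and the branch point.

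Annotated NMD transcripts were found for most of the Srsf genes and for fewer of the Snrp genes. In GENCODE M21 (GRCm38), 9 of 10 Srsf genes had such a transcript, the exception being Srsf10, as did 4 of 11 Snrp genes whose mean count was 100 or more and 31.3% of the 8941 genes with that count and an annotated transcript. In 6 of the 10 Srsf genes, and in 8 of 12 SR genes with Tra2a and Tra2b, the stop codon of an NMD transcript lay in an exon absent from the principal transcript, against 2 of 11 Snrp genes and 9.42% of the 8941 genes. For each of these SR and Snrp genes, the stop codon of the lowest-numbered such transcript is shown in capitals in the middle of 27 bases, because they mark the isoforms that the gene counts and ratios below do not separate.
Srsf3: ctcaccaccctcTGAatctgcattagc
Srsf4: catgccccagctTAGagtgcttcaccc
Srsf6: gccttttgccatTAGacgcagggtgat
Srsf7: agtcagtcgcctTGAttcagaatgtca
Srsf9: acggattcacagTAGaagtactccgga
Srsf11: cctggttcagccTGAactatataccag
Tra2a: agattggtcagaTAGaagcacttgaat
Tra2b: ctcaggaataagTGAagctgaaatttg
Snrpa: cgtgaaggcttgTGAagtggatggatg
Snrpb: tttgtaaagctgTAGcctacagggctc
The Srsf3 stop lies in exon 4 of 7 of transcript 201, an exon of 456 bases, 548 bases upstream of the last exon junction. That of Srsf7 lies in exon 4 of 9 of transcript 203, an exon of 460 bases. In Tra2b the exon is the second of 10 in transcript 206 and has 276 bases, with 1015 bases between the stop and the last junction. In Snrpb, the gene for Sm proteins B and B′, the exon is the third of 8 in transcript 203 and has 124 bases.

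The promoters of the Srsf genes were richer in G and C than those of the Snrp genes. In RefSeq windows of 300 bases around each transcription start (GRCm38.p6), which matched 70 of the 82 genes with 93 promoters, the median GC content was 69.0% for 13 Srsf promoters, 53.5% for 14 Snrp promoters and 52.67% for all 32851. The GC box (GGGCGG, either strand) was in 12 of 13 Srsf promoters (92.31%), 5 of 14 Snrp promoters (35.71%) and 35.66% of all. Of the 14 Snrp windows 4 belong to Snrpn and hold no GC box, and over the other 10 windows the box was in 5 (50.0%) and the median GC content was 56.3%. The CCAAT box (CCAAT, either strand) was in 4 of 13, 4 of 14 and 37.41%, and TATAAA was in 2 of 13, 2 of 14 and 13.62%. The ETS motif (CCGGAAGT) was in 4 Srsf promoters, 1 Snrp promoter and 3.89% of all. The E-box (CACGTG) was in 0, 2 and 7.15%, and the cyclic AMP response element (TGACGTCA) in 0, 2 and 1.79%. The Srsf windows with the ETS motif belong to Srsf4, Srsf5 and Srsf11. Those of Srsf4, which start at chr4:131873387 and chr4:131873389, overlap and hold the same ETS copy and GC boxes. Counts of windows are therefore not counts of genes. Every motif was searched on both strands, none is contained in another, and copies of the GC box can run into each other. Promoters of Srsf2, the Srsf gene with the highest level per length, and of Snrpf, the Snrp gene with the largest rise in counts below, are shown with the motifs found in capitals (in Srsf2 a TATA motif, a CCAAT box and GC boxes, in Snrpf CCAAT boxes, on either strand). Both lie on the minus strand, at chr11:116853045-116853344 and chr10:93589609-93589908.
Srsf2: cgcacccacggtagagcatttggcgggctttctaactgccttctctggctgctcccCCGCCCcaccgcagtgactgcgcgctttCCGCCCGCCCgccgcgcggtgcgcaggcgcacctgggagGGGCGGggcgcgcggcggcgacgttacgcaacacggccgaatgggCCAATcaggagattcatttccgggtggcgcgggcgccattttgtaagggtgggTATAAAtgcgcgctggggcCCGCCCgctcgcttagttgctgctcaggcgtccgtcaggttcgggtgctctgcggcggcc
Snrpf: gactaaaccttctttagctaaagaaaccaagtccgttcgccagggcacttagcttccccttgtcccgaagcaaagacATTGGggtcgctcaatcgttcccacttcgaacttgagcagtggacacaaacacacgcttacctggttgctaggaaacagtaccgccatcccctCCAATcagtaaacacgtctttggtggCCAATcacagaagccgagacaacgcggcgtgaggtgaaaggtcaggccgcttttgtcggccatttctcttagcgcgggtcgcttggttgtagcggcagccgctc
A match of letters is a description of these windows, not a site of binding.

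The Srsf transcripts carried a larger share of new RNA than the Snrp transcripts at every labelling time. This share, the new-to-total ratio (NTR), is the authors' model estimate from the conversions, and it was used where the mean count over the 12 libraries was 100 or more, which left 81 of the 82 genes and 9065 genes in all. Snrpn, which encodes a paralogue of Snrpb and had a mean count of 58.8, fell below that minimum. The median NTR of the 10 Srsf genes was 2.11% ± 0.84 (SD, n = 2 libraries) after 15 min, 10.2% ± 0.90 after 30 min, 23.4% ± 0.47 after 60 min, 32.2% ± 0.62 after 90 min and 41.0% ± 0.66 after 120 min. The 11 Snrp genes had 0.70% ± 0.25, 4.01% ± 0.014, 9.47% ± 0.83, 14.2% ± 0.54 and 19.2% ± 1.24 at the same times. Over all 9065 genes the median went from 1.01% ± 0.47 after 15 min through 15.5% ± 0.41 after 60 min to 35.4% ± 0.52 after 120 min, and lay between the Snrp and Srsf medians at each of the 5 times.

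The Srsf median exceeded the Snrp median in 10 of 10 labelled libraries. The difference was 1.41 percentage points at 15 min (1.82 in replicate A and 0.99 in replicate B) and 14.0 points at 60 min (13.0 and 14.9). It reached 21.8 points at 120 min (21.4 and 22.2), many times the difference between replicates. Genes of a group share their libraries and are not replicates, so the medians are given without a test. In comparisons between times, which set 2 libraries against 2, an exact two-sided permutation test cannot go below 0.333. In each of the 6 libraries from 60 to 120 min, 8 of 10 Srsf genes lay above the highest Snrp gene, the exceptions being Srsf1 and Srsf9.

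**Figure D1:**
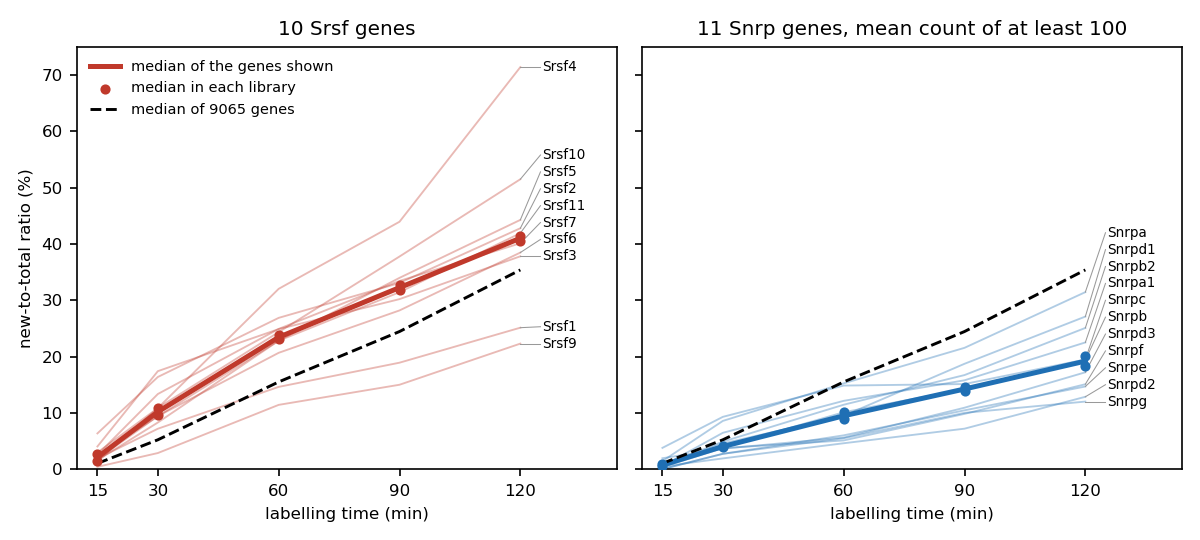
New-to-total ratio in percent (y axis) against labelling time in minutes (x axis) for 10 Srsf genes (left) and 11 Snrp genes (right). Thin lines are the mean of 2 libraries for a gene, thick lines the median of the genes shown, points the median in each library, and the dashed line the median of 9065 genes. The Srsf median reaches 41.0% and the Snrp median 19.2% at 120 min.

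Srsf4, an SR protein gene on the plus strand of chromosome 4 (131873617 to 131901706, GENCODE M21 on GRCm38, as for all gene positions below), had the highest NTR of the Srsf genes at 60 min. Its NTR in replicates A and B was 3.94% and 1.95% after 15 min, 10.2% and 11.5% after 30 min, 29.4% and 34.7% after 60 min, 49.0% and 39.0% after 90 min and 75.8% and 67.1% after 120 min. The authors' 0.05 to 0.95 quantiles at 60 min ran from 25.0% to 34.4% in replicate A and from 30.3% to 39.5% in replicate B, so the replicates overlapped there. The NTR of Srsf4 rose between every pair of consecutive times in both libraries, and both 120 min values lay above all earlier ones.

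Srsf3 and Srsf2 were the most labelled of the Srsf genes at 30 min and ranked lower later. Srsf3, which encodes the smallest SR protein, had an NTR of 17.8% and 17.0% after 30 min, 24.3% and 25.5% after 60 min and 38.7% and 37.0% after 120 min. Srsf2, the gene for SC35, had 16.6% and 16.1% after 30 min, 25.9% and 27.8% after 60 min and 42.6% and 43.0% after 120 min. Replicates of both genes differed by less than 2 points at these times. Srsf3 stood at percentile 92.3 of all 9065 genes at 30 min and at 53.4 at 120 min, and Srsf2 at 91.2 and 59.5. Srsf4, by contrast, stood at 80.9 at 30 min and 82.2 at 120 min.

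The other SR genes lay between these and the Snrp genes, and 2 of them lay among the Snrp genes. At 60 min, the NTR was 24.9% ± 0.19 for Srsf7, 24.3% ± 4.09 for Srsf10, 22.8% ± 0.70 for Srsf5, 22.8% ± 0.099 for Srsf11 and 20.7% ± 1.17 for Srsf6 (SD, n = 2). From Srsf7 to Srsf11, neighbours in this order did not differ beyond their spread. Tra2b, whose protein promotes inclusion of exons with purine-rich enhancers, had 31.0% ± 0.91, close to Srsf4, and its paralogue Tra2a 19.6% ± 2.01. Srsf1, the gene for ASF/SF2, had 14.6% ± 1.11 and Srsf9 11.4% ± 0.93, the lowest of the SR genes. Srsf9 remained at the bottom of the Srsf genes at 120 min, with 22.5% in replicate A and 22.1% in replicate B.

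Among the Snrp genes, those for proteins specific to the U1 and U2 particles had higher NTRs than most Sm protein genes. At 60 min, Snrpa and Snrpc, for U1 proteins A and C, had 15.2% ± 0.24 and 14.8% ± 2.45, and Snrpa1 and Snrpb2, for U2 proteins A′ and B″, had 12.1% ± 3.02 and 11.4% ± 1.36. The Sm genes Snrpb and Snrpd1 had 10.1% ± 0.20 and 9.47% ± 0.83. The remaining Sm genes were Snrpe with 5.995% ± 1.89, Snrpd3 with 5.59% ± 0.18, Snrpg with 5.48% ± 1.19, Snrpf with 5.09% ± 0.76 and Snrpd2 with 4.59% ± 0.099. Neighbours among these 5 Sm genes differed by less than the spread of their replicates. At 120 min Snrpa had 35.6% and 27.3% in its libraries, and Snrpg 12.2% and 11.8%.

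The remaining groups had medians between those of the Srsf and Snrp genes at 60 min. The median was 12.7% ± 0.71 for the Hnrnp genes, whose proteins coat nascent RNA, 15.1% ± 0.62 for Sf3 and U2af genes, whose proteins bind the branch point and the 3′ splice site, 17.1% ± 4.67 for Prpf genes and 18.6% ± 0.11 for Lsm genes. Within each of these groups the genes were spread widely. Hnrnph3 and Hnrnpdl were the highest Hnrnp genes at 25.9% ± 4.24 and 24.1% ± 0.96, and Hnrnpm was the lowest at 7.59% ± 0.40, with Hnrnpd at 9.12% ± 0.40. Sf3a1 and Sf3a2, for subunits of the SF3a complex of the U2 particle, had 21.0% ± 0.26 and 20.3% ± 1.51, against 7.05% ± 1.59 for Sf3b6, which contacts the branch point, and 8.61% ± 1.69 for Sf3b5.

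Prpf39 and Prpf38b had the highest NTRs of the Prpf genes at 60 min, with 43.5% ± 6.14 and 35.7% ± 1.59. Prpf19, an E3 ubiquitin ligase of the activated spliceosome, had 8.17% ± 0.67 and Prpf31, a protein of the U4/U6 particle, 9.96% ± 0.35. Lsm11, which encodes a protein of the U7 particle that processes histone mRNA, was the most labelled of the 81 genes, with 53.3% ± 2.12 at 60 min. Lsm12 had 32.5% in both libraries, while Lsm4, a protein of the Lsm ring on U6 RNA, had 5.17% ± 0.23 and Lsm5, of the same ring, 8.66% ± 4.94. The 13 Prpf genes lay in separate ranges at 120 min, with 6 from 19.6% to 30.0% and 6 from 51.3% to 83.4%. The median, 48.3% ± 5.82, was the value of Prpf40b alone, which lay between these ranges and had a mean count of 105, just above the minimum. Without it, in a count made after its values were seen, the median was 41.0% ± 0.50.

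Converted to apparent half-lives, the values of the Snrp transcripts were 2.48 to 2.69 times those of the Srsf transcripts from 30 to 120 min. The half-life was the labelling time multiplied by ln 2 and divided by −ln(1 − NTR), which assumes a constant level and full labelling from the start. At 30, 60, 90 and 120 min the Srsf medians were 195 ± 18.1, 156 ± 3.34, 160.4 ± 3.80 and 158 ± 3.51 min (SD, n = 2). The Snrp medians were 501 ± 11.7, 419.7 ± 38.9, 407 ± 16.8 and 391 ± 28.1 min. The ratio of the medians, as the mean of the ratios in replicates A and B, was 2.57, 2.69, 2.54 and 2.48 in the same order. Over all genes the medians were 368 ± 11.7, 247 ± 7.16, 224 ± 14.8 and 198 ± 5.41 min.

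**Figure D2:**
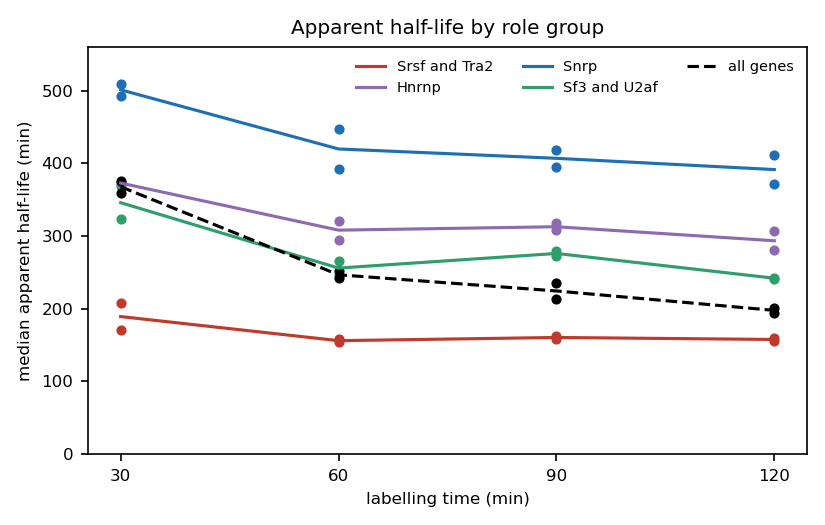
Median apparent half-life in minutes (y axis, from 0) against labelling time in minutes (x axis) for 4 role groups and for all genes with an NTR from 0.01 to 0.99. Points are libraries and lines join the mean of 2 libraries. The SR group stays near 158 min from 60 min on, while the median of all genes falls from 368 to 198 min.

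The apparent half-life of most genes shortened as labelling went on, and it shortened less in every role group but Prpf. This measure of the curve's shape was chosen after its values were seen, so it is a description. The half-life at 30 min divided by that at 120 min had a median of 2.12 over 7865 genes with a value. Its median was 1.36 over the 10 Srsf genes, 1.16 over the 20 Hnrnp genes and 1.32 over 10 Snrp genes. Over 11 Sf3 and U2af genes it was 1.62, over 12 Lsm genes 1.83 and over the 13 Prpf genes 2.68. The ratio was below 1 in 4 of 10 Srsf genes, 5 of 20 Hnrnp genes, 2 of 10 Snrp genes and 7.29% of all genes. In the other groups it was below 1 in 0 of 11 Sf3 and U2af genes, 2 of 12 Lsm genes and 0 of 13 Prpf genes. The 4 Srsf genes were Srsf3 (0.621), Srsf2 (0.781), Srsf7 (0.896) and Srsf1 (0.972). Tra2a had 0.804 and, among the Snrp genes, Snrpc had 0.558 and Snrpa1 0.962.

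The half-lives of single genes show the range. That of Srsf3 was 109 ± 4.29 min from the 30 min libraries, 145 ± 5.60 min from the 60 min libraries and 175 ± 7.21 min from the 120 min libraries (SD, n = 2). That of Srsf4 went the other way, with 182 ± 16.6, 109 ± 15.5 and 66.8 ± 11.5 min. For both genes the 30 and 120 min values differed by more than the spread of their libraries. With the posterior mean in place of the posterior maximum, the median ratio of 30 over 120 min was 1.35 for the Srsf genes and 1.86 for all genes. With 60 in place of 30 min it was 1.05 and 1.33. The share of genes with a ratio below 1 was then 12.7% of all genes with the posterior mean and 14.7% with 60 min, and stayed at 4 of 10 Srsf genes in both.

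Total read counts were then compared between 120 and 15 min of labelling. Of the Snrp genes 6 of 12 rose, none of the SR genes passed the test, and 9 genes of the other groups did. edgeR's quasi-likelihood test, with adjustment over 11564 genes and a threshold of 0.05, called 15 of the 82 genes, 11 higher and 4 lower. The background was 19.3% of all genes tested, 7.93% higher and 11.3% lower, and the 15 genes were 18.29%, so the 82 genes as a whole were called about as often as any. By role, the calls were 6 of 12 Snrp genes higher, 2 of 20 Hnrnp genes higher, 2 of 12 Sf3 and U2af genes higher, 2 of 13 Prpf genes lower, and 1 Lsm gene higher and 2 lower of 13. Of the 12 SR genes 0 were called by edgeR, with 1 at an unadjusted p below 0.05, and 0 of the 10 Srsf genes by DESeq2. In fits without one or both of the no4sU libraries some SR genes did pass, as given with those fits. With scaling by library size alone 5 genes were called higher and 6 lower, of which 2 were Snrp genes.

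All 12 Snrp genes had a log2 fold change above 0, from 0.12 to 0.33 with a median of 0.22. The Srsf genes ranged from −0.13 to 0.16 with a median of −0.028, and the median of all genes tested was 0.0057. Under library size alone the Snrp median was 0.17 and the Srsf median −0.085, with the median of all genes at −0.051, and 12 of 12 Snrp genes still lay above 0. Which genes were called rested on single libraries of the 15 and 120 min groups. Without 15 min replicate A, 2 genes were called and 0 of them were Snrp genes, with 5.62% of all genes called. The counts were 8 and 4 without 15 min replicate B (8.86% of all genes), 6 and 3 without 120 min replicate A (8.70%), and 2 and 0 without 120 min replicate B (6.03%).

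The no4sU libraries are not compared in this contrast and enter it through the filter, the scaling and the shared spread. More genes of both kinds passed without them. Without no4sU replicate A or without replicate B, 30 genes were called, of which 8 were Snrp genes and 3 were SR genes, where 31.6% and 31.7% of all genes were called. The 3 were Srsf9 and Tra2a, both higher, and Srsf11, lower. From the labelled libraries alone 31 genes were called, 8 of them Snrp and 4 SR genes (32.1% of all genes), with Srsf1 added as higher. From the 15 and 120 min libraries alone 33 were called, 8 of them Snrp and 5 SR genes (33.6%), with Srsf10 added as lower.

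**Figure D3:**
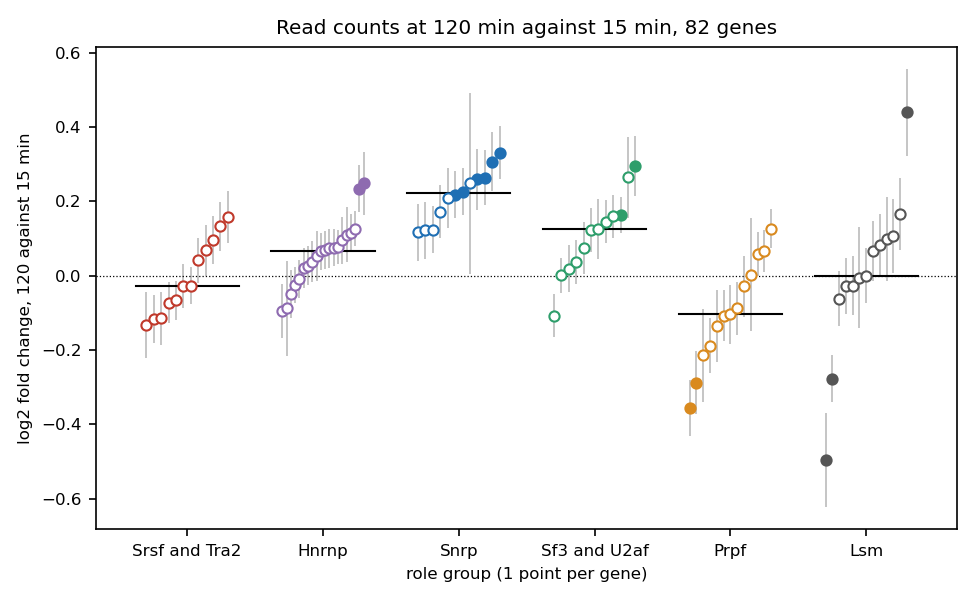
Log2 fold change of read counts at 120 against 15 min (y axis) for the 82 genes by role group (x axis). Filled points passed edgeR's test at an adjusted p below 0.05, open points did not, grey bars are standard errors and black lines are group medians. All 12 Snrp genes lie above 0, and no SR gene is filled.

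Snrpf, an Sm protein gene on chromosome 10 (93583029 to 93589706, minus strand), rose most of the Snrp genes. It had 62.2 and 65.6 CPM after 15 min in replicates A and B, 66.7 and 68.9 after 30 min, 68.0 and 67.5 after 60 min, 74.5 and 72.6 after 90 min and 79.5 and 81.2 after 120 min. Without 4sU it had 83.3 and 72.1 CPM. Both libraries at 90 min and at 120 min lay above every library at 15 to 60 min, and the no4sU libraries covered the range of the 90 and 120 min libraries. The log2 fold change from 15 to 120 min was 0.33 (SE 0.072, edgeR adjusted p = 0.00356). Without 15 min replicate A its adjusted p was 0.0719 and without 120 min replicate B it was 0.0534.

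The other Snrp genes that rose were Snrpg (0.31, adjusted p = 0.0105 by edgeR), Snrpa (0.26, 0.0162), Snrpd2 (0.26, 0.0312), Snrpa1 (0.23, 0.0182) and Snrpd3 (0.22, 0.0195). All 5 lost the call without 15 min replicate A and without 120 min replicate B, and all but Snrpg lost it under library size alone. The 6 Snrp genes that did not pass were Snrpn with 0.25 (SE 0.24), Snrpe with 0.21, Snrpb with 0.17, and Snrpb2, Snrpc and Snrpd1 with 0.12 each. Every Snrp gene had counts that were not whole in at least 1 library, as had 73 of the 82 genes, and the sources used here do not say how the authors divided such reads between genes. Snrpb and Snrpn are close paralogues and their counts are uncertain for that reason.

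Among the SR genes, Srsf9 had the highest fold change, 0.16 (SE 0.070, adjusted p = 0.119), and Srsf10 the lowest, −0.13 (SE 0.089, adjusted p = 0.314), in edgeR. Srsf3 (chromosome 17, 29032628 to 29043373, plus strand) had 437 and 434 CPM at 15 min and 418 and 436 CPM at 120 min, so its groups overlapped. Its log2 fold change was −0.028 (SE 0.060). Srsf4 had 73.0 and 76.9 CPM after 15 min, 76.9 and 73.8 after 30 min, 76.4 and 75.9 after 60 min, 80.3 and 78.2 after 90 min and 78.3 and 78.9 after 120 min, with 82.7 and 73.1 CPM without 4sU. All these values lay within the range of the no4sU libraries apart from 15 min replicate A, which was just below it, and its log2 fold change was 0.069 (SE 0.069, edgeR adjusted p = 0.510).

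Hnrnpr rose most of the Hnrnp genes. This gene for a nuclear RNA-binding protein (chromosome 4, 136310942 to 136359447, plus strand) had 100.3 and 111 CPM after 15 min, 104 and 113 after 30 min, 122 and 119.5 after 60 min, 129 and 118 after 90 min and 125 and 126 after 120 min, against 95.8 and 120.97 CPM without 4sU. Both 120 min libraries lay above all 15 and 30 min libraries, while the 2 no4sU libraries stood far apart, and the log2 fold change from 15 to 120 min was 0.25 (SE 0.085, edgeR adjusted p = 0.0442). The call was lost with library size alone (edgeR adjusted p = 0.114) and with DESeq2 (adjusted p = 0.0632). It was also lost in each fit that left out a labelled library, with log2 fold changes of 0.18 to 0.32. Hnrnpa2b1, whose protein sorts RNA and reads splicing signals, rose by 0.23 on the log2 scale (adjusted p = 0.0124), and lost its call without any of the 4 libraries compared.

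Sf3b5, a small subunit of the SF3b complex (chromosome 10, 13005343 to 13009183, plus strand), rose most of the Sf3 and U2af genes. It had 46.8 and 44.7 CPM after 15 min, 49.7 and 47.3 after 30 min, 46.6 and 47.3 after 60 min, 47.5 and 51.4 after 90 min and 56.1 and 56.1 after 120 min, with 50.7 and 43.1 CPM without 4sU. The 120 min libraries stood above all 10 others, and the rest overlapped. Its log2 fold change was 0.30 (SE 0.081, edgeR adjusted p = 0.0149). Sf3b2, a subunit of the same complex, rose by 0.16 (adjusted p = 0.0215). Both calls were lost without any of the 4 libraries compared, and that of Sf3b2 also with library size alone (edgeR adjusted p = 0.117).

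Prpf4, a protein of the U4/U6 particle (chromosome 4, 62408797 to 62426990, plus strand), fell. It had 89.1 and 86.5 CPM after 15 min, 87.6 and 98.2 after 30 min, 79.4 and 86.0 after 60 min, 83.9 and 74.6 after 90 min and 66.8 and 70.1 after 120 min, with 87.2 and 91.8 CPM without 4sU. The 120 min libraries lay below all 10 others. The log2 fold change was −0.36 (SE 0.075, edgeR adjusted p = 0.00294), and it passed in every leave-one-out fit. Its NTR at 120 min was 73.0% and 76.8%. Prpf18, which acts in the second step of splicing, fell by 0.29 on the log2 scale (adjusted p = 0.0231), and did not pass with DESeq2 (0.0756), nor without 15 min replicate A, 120 min replicate A or 120 min replicate B.

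Of the 13 Lsm genes, Lsm5 rose and Lsm11 and Lsm14a fell, 23.08% of them against the background of 19.3%, and the other 10 did not pass. Lsm11 (chromosome 11, 45928269 to 45944935, minus strand) had 22.1 and 18.0 CPM after 15 min, 19.1 and 17.6 after 30 min, 17.7 and 14.7 after 60 min, 17.0 and 16.1 after 90 min and 14.9 and 13.7 after 120 min, with 16.6 and 19.1 CPM without 4sU. The 120 min libraries lay below both 15 min libraries, and the log2 fold change was −0.50 (SE 0.13, edgeR adjusted p = 0.0103). Its adjusted p was 0.185 without 15 min replicate A and 0.121 without 120 min replicate B. Lsm14a, whose protein belongs to a family acting in mRNA storage and translation rather than in the spliceosome, fell by 0.28 (adjusted p = 0.00503), and missed the threshold without 15 min replicate B (0.0592) and without 120 min replicate A (0.0635).

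Lsm5 (chromosome 6, 56701063 to 56704710, minus strand) had the largest rise of the 82 genes. It had 18.3 and 17.2 CPM after 15 min, 18.8 and 21.6 after 30 min, 20.5 and 18.6 after 60 min, 18.8 and 21.8 after 90 min and 21.8 and 26.1 after 120 min, with 21.8 and 20.0 CPM without 4sU. The 120 min libraries lay above the 15 min libraries and overlapped the no4sU libraries. Its log2 fold change was 0.44 (SE 0.12, edgeR adjusted p = 0.0124), which was not called without either 15 min library (0.0689 and 0.105) or without 120 min replicate B (0.221). Counts of Lsm5 were not whole in any of the 12 libraries, which was also so for Srsf3, Tra2b and Snrpc.

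**Figure D4:**
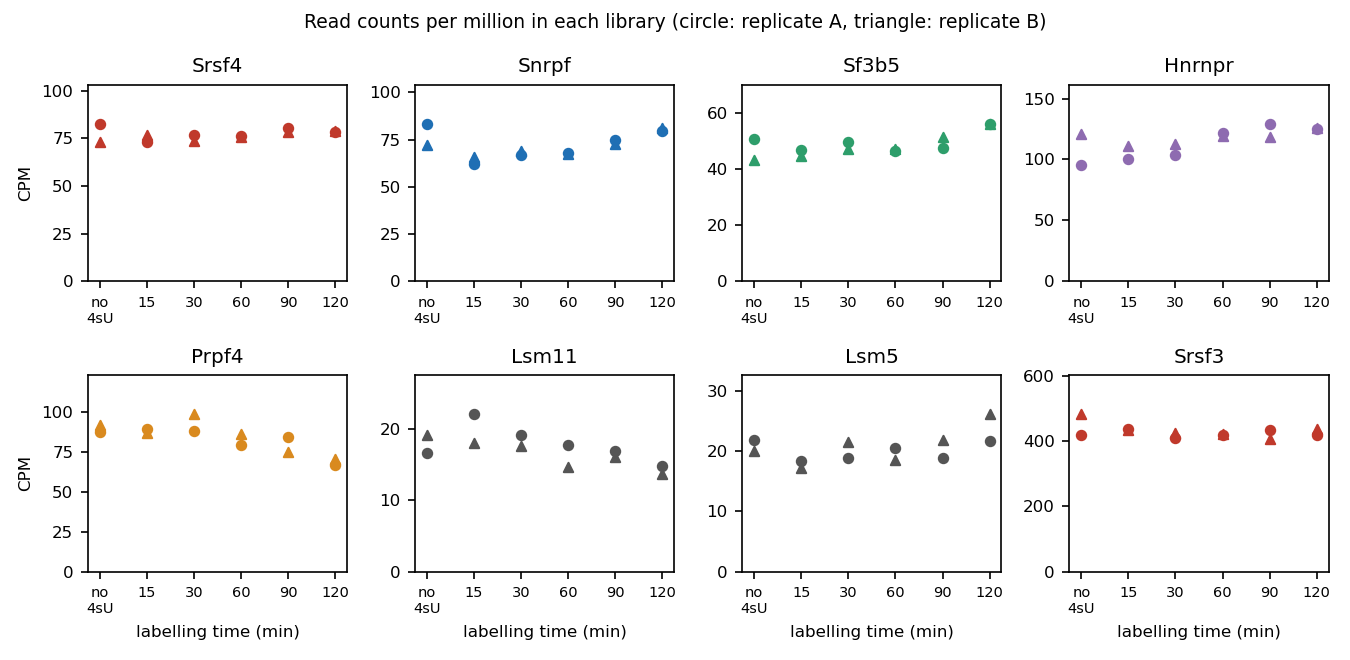
CPM (y axis, from 0) in each of the 12 libraries against labelling time in minutes (x axis) for 8 genes. Circles are replicate A and triangles replicate B. Among the labelled libraries, Snrpf and Sf3b5 are highest and Prpf4 is lowest at 120 min. Lsm11 lies below its 15 min values there, and Srsf4 lies above its 15 min values. Srsf3 overlaps between 15 and 120 min.

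Shorter durations gave no calls among the 82 genes. For 90, 60 and 30 against 15 min edgeR called 0 of the 82, where 1.06%, 0.0346% and 0.0% of all genes were called. At an unadjusted p below 0.05 there were 9, 2 and 0 of the 82 by edgeR, and 4, 0 and 0 by DESeq2, which also called 0 after adjustment. The Snrp medians on the log2 scale were 0.12, 0.035 and 0.039 in the same order. Without either no4sU library the 90 min contrast called 5 (without replicate A) or 8 (without replicate B) of the 82, where 9.08% and 9.77% of all genes were called.

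A slope over labelling time used all 10 labelled libraries and called more genes. edgeR called 36 of the 82, 24 rising and 12 falling, with a background of 37.8% of 11526 genes, 18.3% rising and 19.5% falling. With library size alone the split was 15 rising and 20 falling. The calls were 8 rising and 0 falling of 12 Snrp genes, 5 and 1 of 20 Hnrnp genes, 5 and 1 of 12 Sf3 and U2af genes, 2 and 5 of 13 Prpf genes, 2 and 2 of 13 Lsm genes, and 2 and 3 of 12 SR genes. Snrpf rose by 0.18 per hour on the log2 scale (SE 0.029, edgeR adjusted p = 5.03e-06) and Snrpa by 0.16 (SE 0.028, adjusted p = 1.24e-05). The Snrp count was 8 in 9 of the 10 fits that left out a labelled library and 7 without 120 min replicate B.

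By slope in edgeR, 2 of the 12 SR genes rose and 3 fell, 41.67% of them, close to the 37.8% of all genes. With library size alone 6 SR genes were called (36.5% of all genes). DESeq2 called 4 (32.0%), and edgeR 2 with the new part scaled up as described below (13.0%). The calls of the main fit were as follows. Srsf9 rose by 0.097 per hour (adjusted p = 0.0113) and Tra2a by 0.071 (adjusted p = 0.0258), while Srsf10 fell by 0.11 (adjusted p = 0.00275), Srsf11 by 0.089 (adjusted p = 0.00172) and Tra2b by 0.067 (adjusted p = 0.0242). The other 7 SR genes did not pass. By their CPM values, the 4 libraries of 90 and 120 min lay above the 4 libraries of 15 and 30 min for 20 of the 82 genes and below them for 10, against 14.2% and 13.7% of all genes tested. Of the Snrp genes 7 were above and 0 below, and of the Srsf genes 2 were above and 3 below.

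Against the unlabelled libraries the Snrp genes were not called. At 120 min against no4sU, edgeR called 9 of the 82 genes, 5 higher and 4 lower, with a background of 14.2%, 5.43% higher and 8.78% lower. With library size alone, 0 were higher and 10 lower. Prpf4 fell by 0.39 on the log2 scale (adjusted p = 0.00225), Sf3b5 rose by 0.27 (adjusted p = 0.0317) and Srsf11 fell by 0.22 (adjusted p = 0.0422), the only Srsf gene called. The call of Srsf11 was lost with DESeq2 (9.16% of all genes called) and with the 120 min and no4sU libraries alone (1.5%). It was also lost in each fit that left out a labelled library. Of the Snrp genes 0 were called by edgeR and by DESeq2, with 4 at an unadjusted p below 0.05 by edgeR, and their median was 0.14. The 2 no4sU libraries set this result. Without no4sU replicate A, 30 genes were called (30.2% of all genes), 7 of them Snrp genes and 7 of them SR genes, and the Snrp median was 0.23. Without replicate B, 13 were called (16.2% of all genes), 0 of them Snrp genes and 1 an SR gene, and that median was −0.013. Without either 120 min library 1 of the 82 was called (3.87% and 3.99% of all genes), and without any other labelled library 3 to 5 (at least 11.1% of all genes).

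At 15 min against no4sU, edgeR called 0 of the 82 genes and 0.0% of all genes, with 4 of the 82 at an unadjusted p below 0.05, and DESeq2 called 0 with 2 unadjusted. The Snrp median was −0.095 and the Srsf median −0.044. Without no4sU replicate B, 12 genes were called, 5 of them Snrp genes, and 11.4% of all genes. Without replicate A, 4 were called, 0 of them Snrp genes, and 0.461% of all genes. The comparisons with 15 min share the 15 min libraries and those with no4sU share the no4sU libraries, so their values are given side by side and not correlated.

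The fold change of a gene was lower the higher its NTR. For 120 against 15 min, the log2 fold change and the NTR at 120 min had a Spearman's rho of −0.778 across the 81 genes, and across all 9065 genes it was −0.763. Genes are not independent replicates, both values come from the same 120 min libraries, and no p is given. Lsm11, Prpf4 and Prpf39, with NTRs at 120 min of 89.7%, 74.8% and 80.8%, lay at the lower end, with log2 fold changes of −0.50, −0.36 and −0.21, the last of them not called. Lsm5, Snrpg and Snrpf, with 11.4%, 11.995% and 15.1%, lay at the upper end. Srsf4 stood apart from this order, with 71.4% and 0.069.

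**Figure D5:**
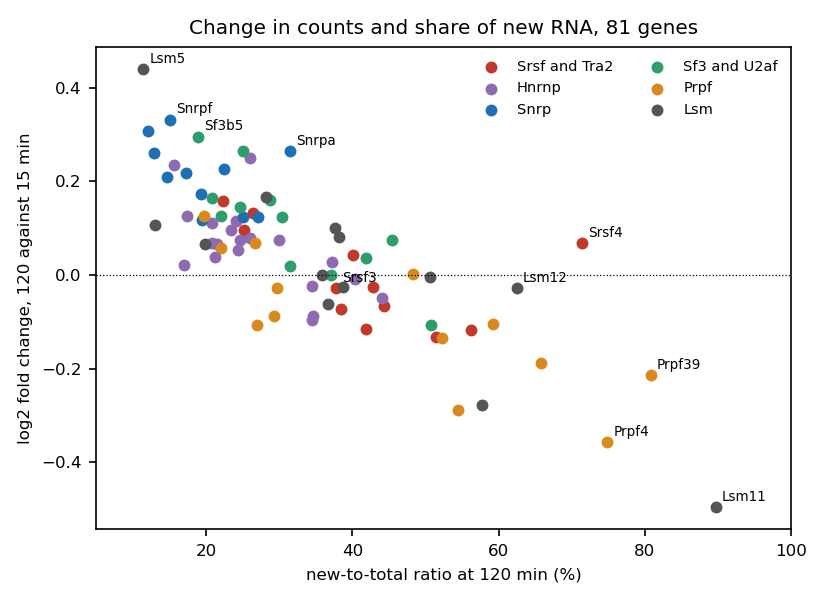
Log2 fold change of read counts at 120 against 15 min (y axis) against the new-to-total ratio at 120 min in percent (x axis), 1 point for each of 81 genes, coloured by role group. Genes with a higher ratio have lower fold changes (Spearman's rho −0.778), and Srsf4 lies above the other genes of its ratio.

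Scaling up the new part of every count, so that the relation with the NTR over all genes was brought to 0, made the median change in Snrp counts smaller. In this calculation the new part, NTR times count, was divided by 1 minus a share that was 34.1% in 120 min replicate A and 35.5% in replicate B. After it, the Snrp median at 120 against 15 min was 0.068, with 11 of 12 Snrp genes still above 0. edgeR then called 1 of the 82 genes, which was no Snrp gene, where 2.07% of all genes were called. The called gene was Srsf4, with a log2 fold change of 0.27 (adjusted p = 0.0424). The scaling raises a count more the higher its NTR, and this p takes no account of error in the NTR or in the share. In the slope over time, 11 of the 82 genes were called after it, 2 of them Snrp genes, where 13.0% of all genes were called. The calculation uses the relation that it removes and does not show where reads went.

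Gene length, as given in the authors' table, also moved with the fold change. For 120 against 15 min, its Spearman's rho with gene length was −0.398 over the 81 genes and −0.382 over all 9065. For 15 min against no4sU it was 0.372 and 0.401, of the opposite sign. The 15 min libraries enter both comparisons, on opposite sides. These values are therefore not independent, and opposite signs can come from those libraries alone. By that length the median was 1700.5 bases for the 12 Snrp genes, 3294 for the 10 Srsf genes and 3045 for all 82. The median length of the principal annotated transcript was 1161 bases for 11 Snrp genes, 2510.5 for the Srsf genes and 3257 for all genes. By both measures the Snrp genes were shorter than the Srsf genes, as well as less labelled. The part of length in the rise of the Snrp genes was not tested.

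Per length, the Srsf genes had a higher median level than the Snrp genes. At 15 min the median level was 84.6 CPM per kb for the 10 Srsf genes, 51.3 for the 12 Snrp genes and 42.3 for all 82, by the gene lengths of the authors' table. Srsf2 had 242 CPM per kb, the highest SR level, and Srsf4 had 24.2, the lowest. Snrpb had 168 and Snrpn 2.38, the ends of the Snrp range. The most labelled Srsf gene at 60 min was thus the least abundant per length.

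The 3′ untranslated regions of the Srsf genes were longer than those of the Snrp genes. Their median length was 1480 bases for Srsf, 360.0 for Snrp and 1184 for all genes. The pentamer ATTTA, the core of AU-rich elements that can shorten the life of an mRNA, was in 8 of 10 Srsf genes, 6 of 11 Snrp genes and 71.3% of all genes, on the transcript strand. The longer TATTTAT, which contains ATTTA, was in 2 of 10 Srsf, 3 of 11 Snrp and 31.6% of all genes. It is shown in capitals within 29 bases for the Srsf and Snrp genes that hold it, which include the little labelled Snrpg and Snrpd3.
Srsf7: attattggccaTATTTATatgggcctgta
Srsf10: tgttcaatggaTATTTATtgaacccttac
Snrpg: aagttttagaaTATTTATttgtatgacat
Snrpd3: gagcctgttgcTATTTATctgttctttat
Snrpb2: aaggacttggtTATTTATagtgtttgttt

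Other spliceosome and splicing regulator genes included calls in both directions, at shares below those of all genes. Of a list of 62 such genes outside the naming rule, edgeR called 2 higher and 6 lower at 120 against 15 min (12.9% against 19.3% of all genes), and 11 rising and 8 falling over time (30.65% against 37.8%). Txnl4a, a protein of the U5 particle, rose by 0.25 (adjusted p = 0.0195) and Acin1, found with the exon junction complex, by 0.17 (adjusted p = 0.0311). Snrnp48, of the minor spliceosome, fell by 0.36 (adjusted p = 0.0209), Rbm39 by 0.31 (adjusted p = 0.00164) and Srpk1, a kinase that phosphorylates SR proteins, by 0.28 (adjusted p = 0.00294). Their median NTR at 60 min, over 61 genes with the mean count, was 16.3% ± 0.66, and that at 120 min 36.8% ± 0.45, close to the medians of all genes.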

How the data were processed

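SLAM-seq of 12 NIH-3T3 libraries was used, with 2 in each of 6 groups named by the labels (0 columns of other samples). The submitters' processing notes name cutadapt, Bowtie2 2.3.0 and STAR 2.7.10b. For genome build, annotation, counting tool and use of strand, the sources used here give nothing. The authors deposited estimated counts per gene, unscaled, of which 20.4% were not whole (tolerance 1e-06). They were rounded for the tests. The authors deposited the NTR as a fraction, with a posterior maximum, used here, a posterior mean and quantiles per the file headers. The deposited alpha and beta columns, parameters of the NTR's distribution entered here under the unit score, were not used.

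The count test was that of edgeR 4.0.16, run in R 4.3.3 (filterByExpr, 11564 genes, TMM factors 0.970 to 1.02, 1 quasi-likelihood fit over 12 libraries, common biological coefficient of variation 4.44%; the slope in a fit of the 10 labelled libraries). CPM used TMM library sizes. P-values were Benjamini-Hochberg adjusted over all genes, and the SE was the fold change over the square root of F. The code was tested on simulated data. DESeq2 1.42.0, other scalings, filters, sample sets, a replicate block, leave-one-out fits and, for the NTR, other count minimums were the alternatives. Half-lives used an NTR from 0.01 to 0.99. Depth limits low counts, and the error of dividing reads between genes is in no error given.

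All Srsf, Tra2 and Snrp genes are described, and otherwise the 3 largest called rises and falls and the 2 highest and lowest NTRs at 60 min of each role group (mean count of at least 100). Genes of the other list were named after their values were seen. The members and lists were chosen with earlier results of these data known.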

Additional observations from a re-analysis of the deposited data

How the results depend on the processing

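None of the 15 genes called at 120 against 15 min changed direction in any alternative run for that comparison. For the other comparisons only the numbers of calls were followed, not the direction of each gene. The alternatives were planned, with exceptions added after seeing the data. These were those for the half-life ratio of 30 over 120 min, the Prpf median without Prpf40b and the Snrp promoters without Snrpn. At 120 against 15 min the 15 called genes became 31 with the labelled libraries only, 33 with the 2 groups alone and 1 with the new part scaled up. At 90 against 15 min the 0 became 5 and 4 with the first 2 of these, and for the slope the 36 became 11 with the new part scaled up. At 120 min against no4sU the 9 became 5 with DESeq2, 0 with the 2 groups alone and 0 with the new part scaled up. Leaving out a library gave 2 to 30 calls at 120 against 15 min, 0 to 8 at 90 against 15 min, 29 to 39 for the slope, 1 to 30 at 120 min and 0 to 12 at 15 min against no4sU. The cause was not tested. The median log2 fold change at 120 against 15 min was −0.085 for Srsf and 0.17 for Snrp genes with library size alone, and 0.068 for Snrp genes with the new part scaled up. Leaving out a library gave 0.17 to 0.25 for Snrp genes and −0.065 to 0.0094 for Srsf genes.

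Where the minimum for the mean count was 1000, the Srsf NTR exceeded the Snrp NTR by 16.9, 20.8 and 23.8 points at 60, 90 and 120 min, and with 10 by 15.4, 19.4 and 22.7 points. It was 18.4 points at 120 min with the Sf3a and Sf3b genes added to the Snrp genes. The half-life ratio became 2.86, 4.01, 3.20 and 2.80 at 30, 60, 90 and 120 min with 1000, 2.87 and 2.61 at 90 and 120 min with 10, and 2.04 and 2.07 at 30 and 120 min with the Sf3a and Sf3b genes. At 15 min, the ratio of 1.52 became 2.69 with every NTR above 0. There the minimum of 0.01 kept 9 of 10 Srsf genes in replicate A and 7 in replicate B. Of the 11 Snrp genes it kept 5 and 4.

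With the replicate letter as a block, 15 genes were called at 120 against 15 min, 38 for the slope and 8 at 120 min against no4sU. The differences between replicates A and B correlated between groups with r from −0.042 to 0.068 over 15 pairs of groups. These r values were small, but taken over all genes they cannot exclude a shift in counts shared by the groups. Whether libraries of the same letter were handled together cannot be told from these values. Depth limits the low counts of Lsm11, Lsm5 and Snrpn, and most NTRs at 15 min.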
